A study of Mus musculus with 6 samples.

Results

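Eph receptors are receptor tyrosine kinases of the cell surface. Here 10 of them were followed in the forming mouse hand: Epha2, Epha3, Epha4, Epha5, Epha7 and Epha8 of the A class, and Ephb1, Ephb2, Ephb3 and Ephb4 of the B class. They were chosen by name, and every non-control probe carrying one of these gene names was taken, which gave 14 of the 55681 probes on the array and 10 of its 36406 gene names. RNA came from mesenchymal cells of the forelimb autopod, the plate of the future hand, of mouse embryos at E11.5. Embryos were C57BL/6 and carried EGFP knocked into the Sox9 gene, the gene for the transcription factor that starts cartilage formation. A flow sorter split the cells by EGFP into a Sox9-EGFP positive group and a Sox9-EGFP negative group, with 3 samples of each, and each sample pooled about 10 autopods and was hybridised to its own 1-colour Agilent array of 60-base probes. The title of the series sets the comparison in a network of Bmp, Sox9 and Wnt that patterns the digits.

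Both groups came from embryos with the same Sox9 reporter, and a cell was placed in a group by its EGFP. The sources used here do not give the gates of the sort or say whether samples came from separate litters, so the p-values measure the spread between these samples. In such bulk samples, fewer cells that express a gene and less RNA per cell cannot be told apart.

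An Eph receptor on one cell is activated by an ephrin on the surface of a neighbouring cell. A class receptors mainly bind the ephrin-A ligands, which are held in the membrane by a lipid anchor, and B class receptors mainly bind the transmembrane ephrin-B ligands. The receptor signals into its own cell, and the ephrin can signal back into the cell that carries it. Contact between cells with different receptors and ligands often leads to repulsion or sorting into separate groups, and in the limb the family guides motor axons and takes part in the aggregation of mesenchyme before cartilage forms.

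Sequences are shown for Epha2, Epha4, Epha7 and Epha8, the 3 receptors called lower and the 1 that ran the other way in both measured probes. Epha7 was read by 3 probes, and the sequences of the pair that gave a signal are shown because they fall in different stretches of the gene. The first lies 21.3 kb upstream of the second on chromosome 4 of mm9, at chr4:28869764-28869823 on the plus strand, and the array assigns it to transcript variant 2. The second, at chr4:28891069-28891128 on the plus strand, is assigned to transcript variant 1. In both, 2 of the 3 reading frames of the probe hold no stop codon. No letters are in capitals in these probe sequences.
Epha7 probe A_55_P1969058: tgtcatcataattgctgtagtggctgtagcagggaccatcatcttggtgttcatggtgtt
Epha7 probe A_52_P504787: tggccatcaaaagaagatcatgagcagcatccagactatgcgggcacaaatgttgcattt

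The promoters of the 3 receptors called lower in Sox9-EGFP positive cells and of Epha7 are given from 250 bases before to 50 bases after the start of the gene, from RefSeq on GRCm38.p6, 5′ to 3′ on the strand of the gene. All 10 receptors matched an entry. Capitals mark matches, on either strand, to any of 4 short motifs that were searched: CTTTGA, the core bound by TCF/LEF factors of the Wnt pathway, CATTGT, a core bound by SOX factors, TTTATTG, a core bound by posterior HOX factors, and GGGCGG, the GC box. Of 32851 mouse promoters of the same length, 16.0% hold CTTTGA, 12.6% hold CATTGT, 4.60% hold TTTATTG and 35.7% hold GGGCGG.
Epha8, chr4:136956767-136957066, minus strand: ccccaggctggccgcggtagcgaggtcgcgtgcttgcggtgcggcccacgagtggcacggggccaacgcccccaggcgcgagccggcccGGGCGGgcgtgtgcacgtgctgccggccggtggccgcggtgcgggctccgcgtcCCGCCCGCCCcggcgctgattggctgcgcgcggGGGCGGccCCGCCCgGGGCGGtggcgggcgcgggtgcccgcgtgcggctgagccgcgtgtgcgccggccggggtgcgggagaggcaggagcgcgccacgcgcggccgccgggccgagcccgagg
Epha2, chr4:141300971-141301270, plus strand: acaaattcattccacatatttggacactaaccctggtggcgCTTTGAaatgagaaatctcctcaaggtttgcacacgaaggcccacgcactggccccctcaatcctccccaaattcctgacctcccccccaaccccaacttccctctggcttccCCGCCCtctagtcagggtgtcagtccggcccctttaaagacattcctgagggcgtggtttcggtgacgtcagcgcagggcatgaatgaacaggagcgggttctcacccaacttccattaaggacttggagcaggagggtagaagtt
Epha4, chr1:77515039-77515338, minus strand: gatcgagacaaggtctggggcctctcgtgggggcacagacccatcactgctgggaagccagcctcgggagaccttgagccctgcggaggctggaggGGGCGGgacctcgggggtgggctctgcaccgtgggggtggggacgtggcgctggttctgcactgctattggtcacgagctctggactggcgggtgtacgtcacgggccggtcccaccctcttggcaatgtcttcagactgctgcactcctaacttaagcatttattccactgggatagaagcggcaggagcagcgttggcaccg
Epha7, chr4:28812881-28813180, plus strand: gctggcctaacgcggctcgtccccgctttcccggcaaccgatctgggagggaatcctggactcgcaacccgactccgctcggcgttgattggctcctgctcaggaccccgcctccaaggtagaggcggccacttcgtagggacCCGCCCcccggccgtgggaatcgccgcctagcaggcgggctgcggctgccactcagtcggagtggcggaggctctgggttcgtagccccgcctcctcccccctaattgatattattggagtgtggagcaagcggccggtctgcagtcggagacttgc

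The Epha8 promoter held 84.3% G and C, more than 99.8% of the promoters, with 56 CpG dinucleotides against a median of 7 over all promoters. It held 6 GC boxes, a pair of which overlap. The Epha2 promoter held 54.7% G and C, close to the median of 52.7%, and had 1 TCF/LEF core 209 bases before the start and 1 GC box. The Epha4 and Epha7 promoters held 64.0% and 67.0% G and C and 1 GC box each. These letters describe the windows, and whether any factor binds there was not tested.

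Every value below is the log2 of the processed signal of a probe relative to the 75th percentile of its array, so 0 is the 75th percentile and 1 unit is a doubling. Levels of different probes are not compared as amounts of RNA, because probes differ in how strongly they bind. The 75th percentile itself was 126 for positive replicate 1 and 385 to 478 for the other 5 arrays, and 24743 spots were well above background on that array against 29800 to 35277 on the others. Sox9, the check of the sort, gave 3.52, 2.99 and 3.60 in positive cells and −0.88, −1.0 and −1.13 in negative cells. Testing was limited to the 26490 probes that exceeded background clearly throughout 1 group or both, on all of its 3 arrays. Of these, 5735 were called at an adjusted p under 0.05 (limma with Benjamini-Hochberg adjustment), 2109 of them higher and 3626 lower in positive cells. The count was 6453 without positive replicate 1, 3602 and 2365 without positive replicates 2 and 3, and 2034, 3499 and 2038 without negative replicates 1, 2 and 3. The smallest exact p that 3 arrays against 3 can give is 0.1, so each call leans on a variance estimated with the help of the other probes.

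Of the 14 Eph receptor probes, 12 were tested, covering 9 of the 10 genes. Epha8, Epha2 and Epha4 fell in Sox9-EGFP positive cells, and 0 of the 12 probes was called higher by limma, while 2 were higher and 5 lower at an unadjusted p under 0.05, which 36.6% of all tested probes passed. The 3 lower probes are 25% of those tested, where 13.7% of all tested probes were called lower, 7.96% higher and 21.6% either way. Epha8 passed the filter on background only through the negative cells, which favours a lower call. Of the 11 probes well above background on all 6 arrays, 2 were called, where the share over all such probes was 22.7%. The share of receptors called is therefore near that of the array as a whole. With a limit of 2-fold as well, 4.36% of all tested probes were called lower and 8.83% either way. Of the receptors measured in both groups, Epha2 and Epha4 passed it, with −1.57 and −1.01, and Epha4 fell short of it in several alternatives, among them quantile normalisation (−0.75) and the series matrix (−0.72). The median difference of the 12 probes was −0.26, against −0.10 over all tested probes, and the groups did not overlap for 8 of the 12 probes, against 43.2% of all tested probes.

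**Figure D1:**
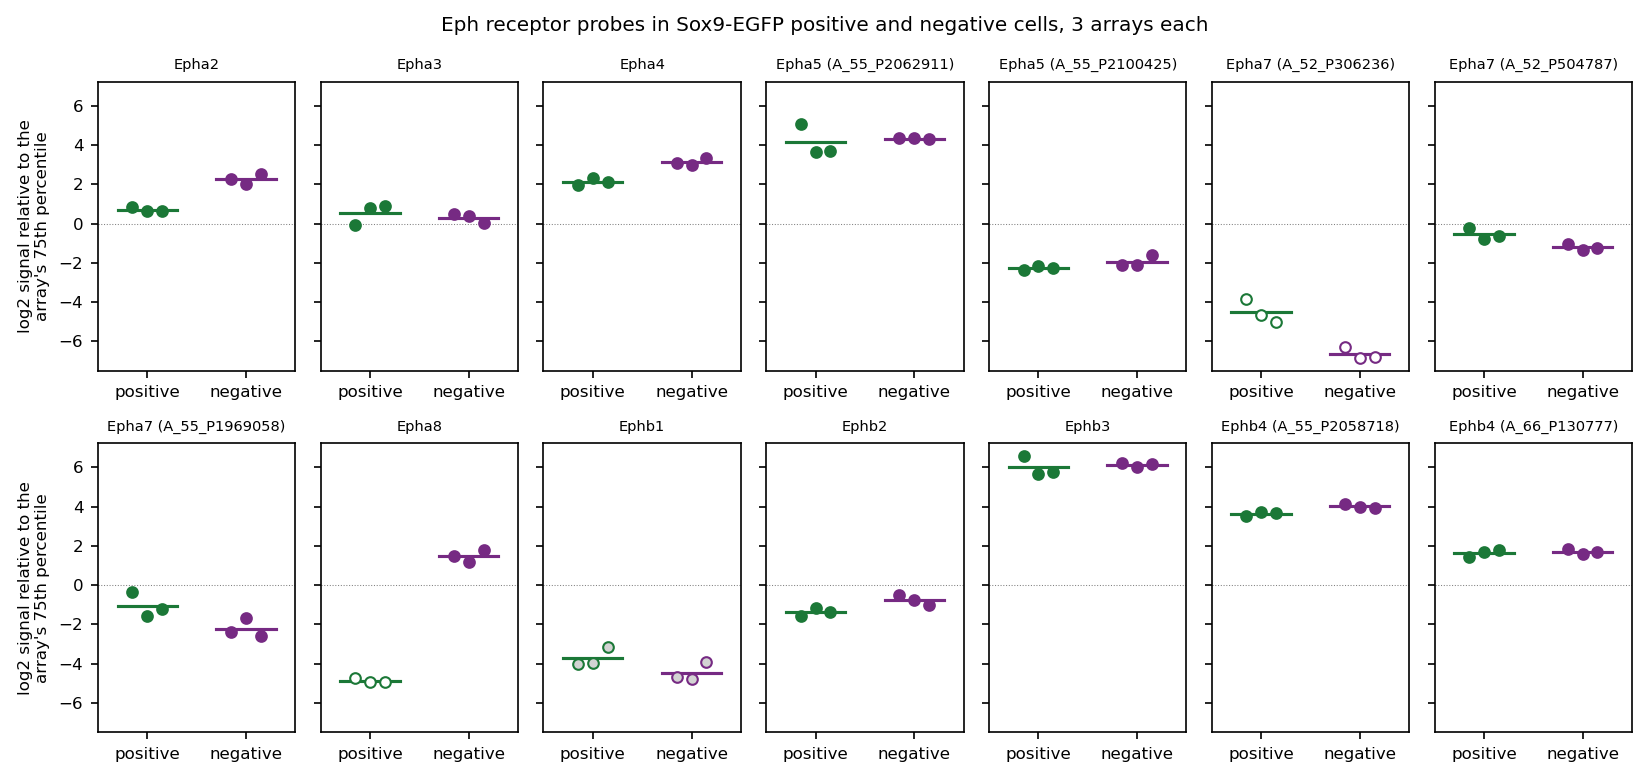
Signal of the 14 Eph receptor probes on each array, as log2 relative to the array's 75th percentile, for Sox9-EGFP positive (green) and negative (purple) cells; points are arrays in replicate order, lines are group means, open points mark groups with no array well above background and grey points groups with only some. The Epha8 points lie between −4.95 and −4.74 in positive cells and between 1.19 and 1.80 in negative cells.

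Among the A class receptors, Epha8 was well above background in the negative cells only. It is best known from axons of the brain, where it binds ephrin-A ligands. Its probe (A_55_P2100485), at chr4:136485335-136485394 of mm9 on the minus strand and from base 4652 of the annotated transcript, gave −4.74, −4.91 and −4.95 in positive cells and 1.48, 1.19 and 1.80 in negative cells. None of the positive arrays and all 3 negative arrays were well above background. On this scaling Epha8 was therefore at least 51.4-fold lower in positive cells. This bound sets the mean of the negative arrays against the mean, over the positive arrays, of the lowest signal that was well above background, or of the probe's own signal where that was higher. The means of the signals were −4.87 in positive cells and 1.49 in negative cells (limma adjusted p = 0.00018), and the positive mean is that of signals at background, not a level. The fitted difference was −3.64 with normexp background correction and −3.54 in the series matrix. Both are smaller in size than the 51.4-fold bound, which holds on this scaling only.

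Each of the 3 slides carried 1 positive and 1 negative array, and on each the Epha8 probe was well above background on the negative array alone. It was called in each of the 19 alternative settings that tested it, and the filter on all 6 arrays left it out. Its probe passed the main filter through the negative cells only, and its positive signals were at background. These calls are therefore no separate support for a difference.

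**Figure D2:**
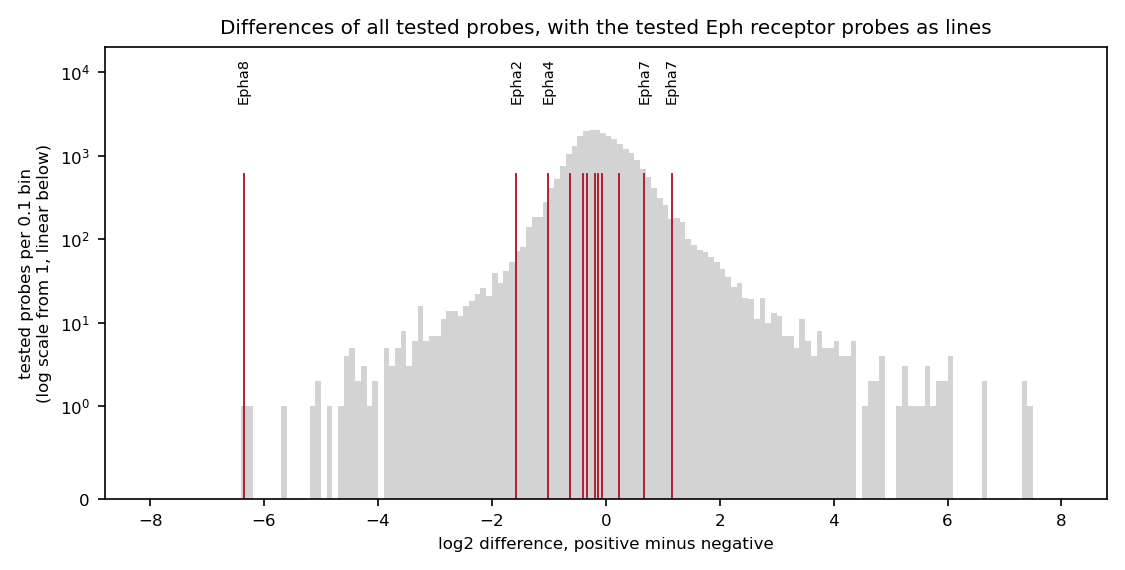
Number of tested probes per 0.1-wide bin of the log2 difference, positive minus negative cells (grey, log scale from 1 upward), with the 12 tested Eph receptor probes as red lines. Epha8, whose fitted value of −6.36 uses positive signals at background and is no measured difference, stands at the left, and most receptor probes lie in the bulk of the distribution.

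Epha2, a receptor for ephrin-A1 found in many epithelia and in early embryos, was 2.97-fold lower in positive cells. Its probe at chr4:140885139-140885198 of mm9 on the plus strand gave 0.86, 0.66 and 0.63 in positive cells and 2.29, 2.03 and 2.55 in negative cells. The groups did not overlap, and the probe was well above background on all 6 arrays. The difference was −1.57 ± 0.17 (SE; limma adjusted p = 0.00356), with slide values of −1.17, −1.88 and −1.67, and it was called in each of the 20 alternative settings.

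Epha4, which binds ephrins of both classes and steers motor axons in the dorsal and ventral limb, was 2.02-fold lower. Its probe at chr1:77364339-77364398 of mm9 on the minus strand gave 1.98, 2.34 and 2.11 in positive cells and 3.11, 3.0 and 3.35 in negative cells. All positive arrays lay below all negative arrays, and the slide values were −1.02, −1.01 and −1.0. The difference was −1.01 ± 0.16 (SE; limma adjusted p = 0.0103). It was called whichever array was left out, with an adjusted p of at most 0.0489, but not when all 55681 probes were tested with no filter on background (adjusted p = 0.083).

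Epha7 ran the other way, though neither of its measured probes was called. Epha7 is the receptor linked to mesenchymal aggregation in the distal limb, and in mouse its expression there depends on Hoxa13. The upstream probe shown above (A_55_P1969058) gave −0.35, −1.59 and −1.24 in positive cells and −2.38, −1.70 and −2.57 in negative cells. The downstream probe (A_52_P504787) gave −0.22, −0.76 and −0.61 in positive cells and −1.02, −1.36 and −1.24 in negative cells. In both probes every positive array lay above every negative array.

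The difference was 1.16 ± 0.38 (SE; limma adjusted p = 0.0782) for the upstream probe and 0.68 ± 0.19 (SE; limma adjusted p = 0.0502) for the downstream probe. With slide as a block the upstream probe was called (limma adjusted p = 0.0123), in a fit that called 25% of all tested probes, and the downstream probe was not (limma adjusted p = 0.0654). The mean of both probes gave 0.92 (limma adjusted p = 0.0468), so Epha7 stood close to the threshold on either side of it. The third Epha7 probe (A_52_P306236), also assigned to transcript variant 2 and 3.81 kb downstream of the first, did not clear background on any of the 6 arrays.

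Epha3, a receptor for ephrin-A5, gave −0.05, 0.81 and 0.87 in positive cells and 0.49, 0.41 and 0.01 in negative cells. The groups overlapped, and the difference was 0.24 ± 0.29 (SE; limma adjusted p = 0.599). Its 95% interval ran from −0.46 to 0.94.

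Epha5, known for its part in topographic maps of axons, was read by 2 probes. One (A_55_P2100425) gave −2.37, −2.18 and −2.28 in positive cells and −2.10, −2.13 and −1.62 in negative cells. The positive arrays lay just below the negative ones, and the difference of −0.33 ± 0.18 (SE) was not called (limma adjusted p = 0.243). The other (A_55_P2062911) gave 5.07, 3.64 and 3.71 in positive cells and 4.37, 4.34 and 4.28 in negative cells. Positive replicate 1 stood above every other array and the other 2 positive arrays below all negative ones. The difference was −0.19 ± 0.39 (SE; limma adjusted p = 0.766), and without positive replicate 1 it was −0.65 (limma adjusted p = 0.019).

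In the B class, 0 of the 4 tested probes was called by limma, and 2 had an unadjusted p under 0.05, as did 36.6% of all tested probes. Ephb2, which binds ephrin-B ligands and acts in axon guidance and in tissue boundaries, gave −1.56, −1.19 and −1.37 in positive cells and −0.49, −0.75 and −1.02 in negative cells. All positive arrays lay below all negative arrays. The difference was −0.62 ± 0.19 (SE; limma adjusted p = 0.061). Ephb2 was called in 4 of 20 alternative settings, among them the values the authors normalised, at −0.54 (limma adjusted p = 0.0456).

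Ephb4, the receptor for ephrin-B2 on veins, had 2 probes. One (A_55_P2058718) gave 3.52, 3.73 and 3.66 in positive cells and 4.15, 3.98 and 3.95 in negative cells, a difference of −0.39 ± 0.13 (SE; limma adjusted p = 0.0822). The other (A_66_P130777) gave 1.45, 1.69 and 1.77 in positive cells and 1.83, 1.60 and 1.66 in negative cells, a difference of −0.06 ± 0.15 (SE; limma adjusted p = 0.803). The groups were apart in the first probe and overlapped in the second, and the interval of the second ran from −0.42 to 0.29.

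Ephb3, which works beside Ephb2 in the intestine and in axon tracts, gave 6.57, 5.68 and 5.75 in positive cells and 6.21, 6.02 and 6.18 in negative cells. As with the second Epha5 probe, positive replicate 1 stood above all other arrays and the other 2 positive arrays below all negative ones. The difference was −0.14 ± 0.26 (SE; limma adjusted p = 0.738), with an interval from −0.77 to 0.49. Ephb1, a receptor of ephrin-B ligands in axon guidance, was well above background on 2 positive arrays and 1 negative array and was not tested. Its probe gave −4.01, −3.98 and −3.14 in positive cells and −4.66, −4.78 and −3.93 in negative cells, and the groups overlapped.

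**Figure D3:**
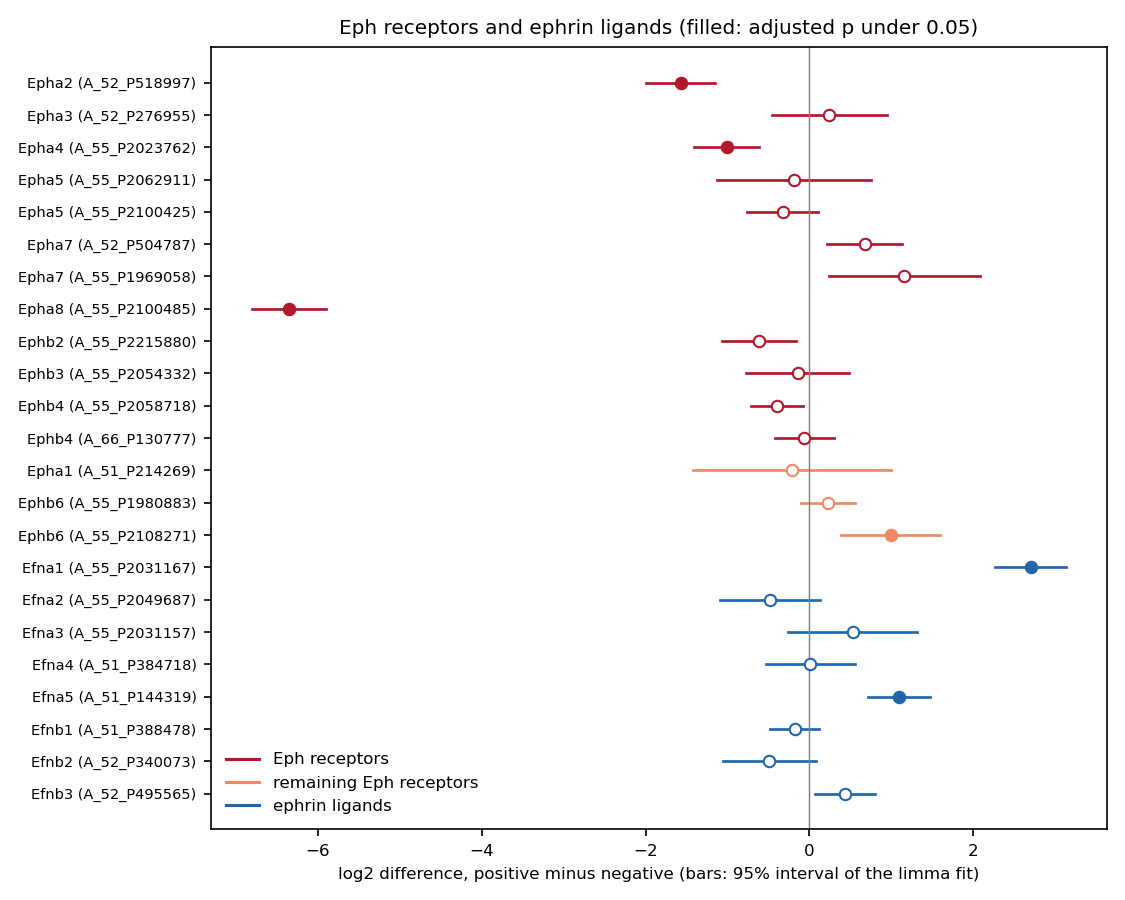
Log2 difference, positive minus negative cells, for each tested probe of the 10 Eph receptors (red), the remaining Eph receptors (orange) and the ephrin ligands (blue), with 95% intervals of the limma fit as bars and filled points for an adjusted p under 0.05. Epha8, Epha2 and Epha4 are filled to the left of 0, and Efna1, Efna5 and 1 Ephb6 probe to the right.

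The second Epha5 probe (A_55_P2062911) and the Ephb3 probe share a feature of sequence, looked for after their values were seen. They contain runs of 20 and 33 alternating T and G bases. On the array, 76 probes hold a run of at least 20 alternating T and G, or A and C, bases. Of these, 97.4% were well above background on all 6 arrays, against 39.0% of all probes, and in 76 of 76 positive replicate 1 lay above the mean of positive replicates 2 and 3, against 13521 of all 26490 tested probes.

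The gap between positive replicate 1 and the mean of the other 2 positive arrays was 1.39 for the Epha5 probe and 0.86 for the Ephb3 probe. Its median was 1.16 over the probes with a run and 0.01 over all tested probes. The sets also differed in brightness, with a median signal of 5.26 for the probes with a run and −0.01 for all tested probes. Gaps were not compared at matched brightness. Of the 76 probes, 0 were called by limma (20 at an unadjusted p under 0.05), 24 with slide as a block and 41 without positive replicate 1. Whether these 2 probes read their own genes or other RNA with such repeats was not tested.

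**Figure D4:**
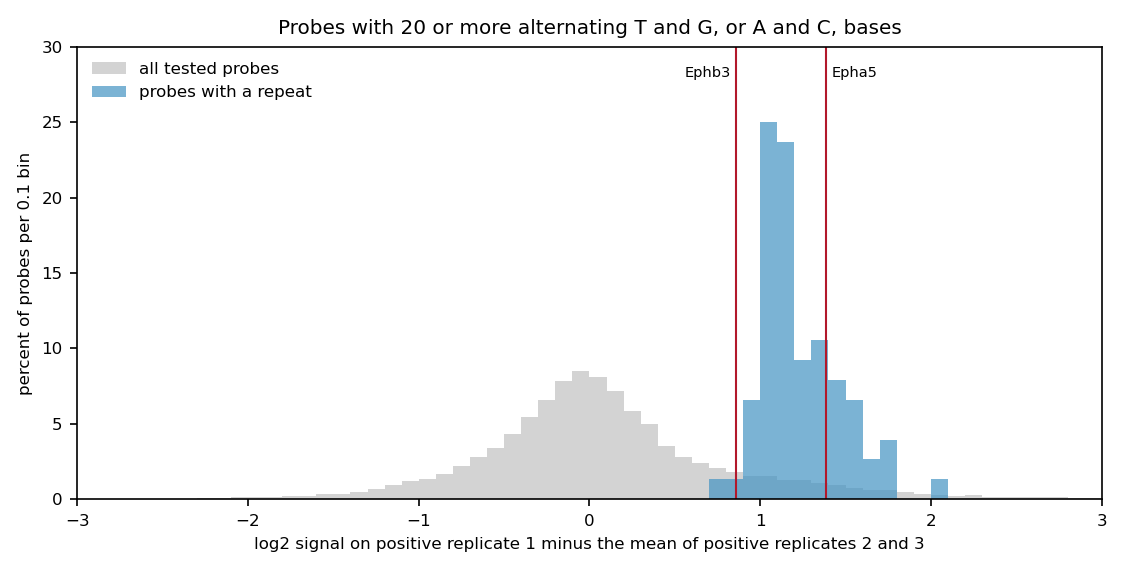
Log2 signal on positive replicate 1 minus the mean of positive replicates 2 and 3, as percent of probes per 0.1-wide bin, for all tested probes (grey) and for the 76 probes with a run of at least 20 alternating T and G, or A and C, bases (blue). Red lines mark the Ephb3 probe at 0.86 and the Epha5 probe at 1.39, both among the probes with a run.

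The 4 remaining members of the family were measured by 5 probes. Epha1 gave −1.16, −0.21 and −0.54 in positive cells and 0.61, −1.16 and −0.73 in negative cells, and was not called (−0.21 ± 0.50, SE; limma adjusted p = 0.799). Epha6 and Epha10 did not clear background on any of the 6 arrays. Ephb6, which lacks kinase activity, had 1 probe that was higher in positive cells (A_55_P2108271), with −2.27, −2.84 and −2.64 in positive cells and −3.36, −3.34 and −4.02 in negative cells, and 1 that was not called (A_55_P1980883; 0.23, limma adjusted p = 0.29). The higher one differed by 0.99 ± 0.25 (SE; limma adjusted p = 0.0377), and its call was lost whichever array was left out (adjusted p from 0.0568 to 0.102).

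The ligands were read by 10 probes, of which 8 were tested, 1 for each of 8 genes. Of these, 2 were higher and 0 lower in positive cells by limma, which is 25% and near the 21.6% of all tested probes called either way (7.96% higher). At an unadjusted p under 0.05, which 36.6% of all tested probes passed, 3 were higher and 0 lower, and the median difference was 0.22. Efna1, which encodes the main ligand of Epha2, gave 3.94, 4.37 and 4.42 in positive cells and 1.59, 1.37 and 1.65 in negative cells. It was 6.51-fold higher in positive cells, a difference of 2.70 ± 0.18 (SE; limma adjusted p = 0.000833). Efna5, a ligand of Epha3, Epha4, Epha5 and Epha7, gave 1.43, 1.46 and 1.5 in positive cells and 0.64, 0.21 and 0.25 in negative cells.

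Efna5 was 2.13-fold higher (1.09 ± 0.16, SE; limma adjusted p = 0.00762), but was not called when no filter on background was set (limma adjusted p = 0.0653). In these 3-array groups Epha2 and its ligand gene thus lay on opposite sides, with Epha2 lower and Efna1 higher in positive cells. The 6 ligand genes that were not called had differences from −0.49 for Efnb2 to 0.53 for Efna3, and included all 3 ephrin-B genes. Of these, Efnb3 differed by 0.43 ± 0.15 (SE; limma adjusted p = 0.0929) and was called in 5 alternative settings, among them the series matrix (limma adjusted p = 0.0134). Efna3 and Efna4 lie next to Efna1 on chromosome 3, with Efna4 at 0.01 ± 0.22 (SE; limma adjusted p = 0.981).

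Of 52 genes that act with Eph receptors or ephrins in the cytoplasm or at the membrane, 51 were on the array with 90 probes, and 79 probes of 47 genes were tested. Of these, 7 probes were higher and 8 lower in positive cells, which is 19% of the probes and near the 21.6% of the whole array. The median difference was −0.11. Without each of positive replicates 2 and 3 and negative replicates 1 to 3 the total was 6, 5, 6, 8 and 5 probes, and 16 without positive replicate 1. Of the genes with several tested probes, 7 had some probes called and others not, and 0 had probes called in opposite directions.

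Of the 6 higher genes, those with the smallest adjusted p were Rgs3, Sh2d3c, Sipa1l1 and Ngef. Rgs3, a regulator of G protein signalling that binds ephrin-B, had 2 probes called, at 1.29 ± 0.12 and 1.35 ± 0.13 (SE; limma adjusted p = 0.00224 and 0.00225). Sh2d3c, an adaptor that binds Eph receptors, differed by 1.29 ± 0.16 (SE; limma adjusted p = 0.00499). Sipa1l1, a regulator of Rap proteins that binds Epha4, differed by 0.86 ± 0.13 in 1 probe (SE; limma adjusted p = 0.00961), and its other probe at 0.32 was not called. Ngef, the exchange factor ephexin that binds Epha4, differed by 0.69 ± 0.14 (SE; limma adjusted p = 0.0221). Its probe was not well above background on all 6 arrays, so this difference rests in part on signals near background.

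Of the 8 lower genes, Sdc2, Pard3, Rac1 and Chn1 had the smallest adjusted p. Sdc2, the proteoglycan syndecan-2 and a target of Ephb2 in neurons, gave 1.07, 0.95 and 0.92 in positive cells and 2.93, 2.89 and 3.02 in negative cells. It was 3.90-fold lower, a difference of −1.96 ± 0.12 (SE; limma adjusted p = 0.000685). Chn1, a Rac-inactivating protein that acts below Epha4 in axons, differed by −0.62 ± 0.14 (SE; limma adjusted p = 0.0307). Pard3, a polarity protein, differed by −0.79 ± 0.15 in 1 of 4 probes, and Rac1, a small GTPase of the cytoskeleton, by −0.67 ± 0.15 in 1 of 2 (SE; limma adjusted p = 0.0162 and 0.0281).

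Rgs3, Sh2d3c, Sipa1l1 and Sdc2 were called whichever array was left out. Ngef was called without positive replicate 1 or negative replicate 1 and lost without each of the other 4 arrays (adjusted p from 0.0655 to 0.0898). Pard3 was lost without positive replicate 3, negative replicate 1 and negative replicate 3, each in turn (adjusted p from 0.0636 to 0.0722). Rac1 was called without positive replicate 1 or negative replicate 2 and lost without each of the other 4 (adjusted p from 0.0767 to 0.104). Chn1 was called without positive replicate 1 and lost without any other array (adjusted p from 0.0649 to 0.116). With quantile normalisation Ngef, Pard3, Rac1 and Chn1 were not called (adjusted p = 0.366, 0.0606, 0.145 and 0.0538).

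The Hox genes that act on Epha7 in the mouse limb are Hoxa13 and Hoxd13, of which Hoxd13 fell in positive cells. Hoxd13 gave 4.20, 4.73 and 4.88 in positive cells and 6.09, 6.18 and 6.39 in negative cells, a difference of −1.61 ± 0.21 (SE; limma adjusted p = 0.00605). The Hoxa13 probe with the highest signal gave 2.70, 3.61 and 3.35 in positive cells and 4.49, 3.58 and 3.89 in negative cells, and its difference of −0.76 ± 0.32 (SE) was not called (limma adjusted p = 0.145). The other Hoxa13 probe (A_51_P303316) differed by −0.90 and was not called. It was called in some alternatives, such as the slide block (limma adjusted p = 0.0428), but not with any array left out (0.0652 to 0.178). The Epha7 differences, 1.16 and 0.68, had the opposite sign to those of both Hox genes.

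Several receptors sit on chromosome 4, and Ephb2 and Epha8 are close together there, with their probes 274 kb apart. The genes around them were looked at after the values of the receptors were seen. Zbtb40, 50.3 kb beyond the Epha8 probe, was lower in positive cells by a difference of −0.55 (limma adjusted p = 0.0498), and Kdm1a, 379 kb on the other side, by −0.62 (limma adjusted p = 0.023). Both calls were lost with quantile normalisation (adjusted p = 0.276 and 0.202), that of Zbtb40 also whichever array was left out (0.0611 to 0.154), and that of Kdm1a without any array but positive replicate 1 (0.0551 to 0.0921). Luzp1 was not called in any of its 3 probes. C1qa and C1qc, complement genes of macrophages that lie between Ephb2 and Epha8, were well above background on 1 array, that of negative replicate 2, with −0.65 and 0.51. C1qb, the third complement gene of the interval, was well above background on 3 arrays, with −3.49, −5.40 and −3.74 in positive cells and −4.13, 0.051 and −4.54 in negative cells, and was not tested.

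**Figure D5:**
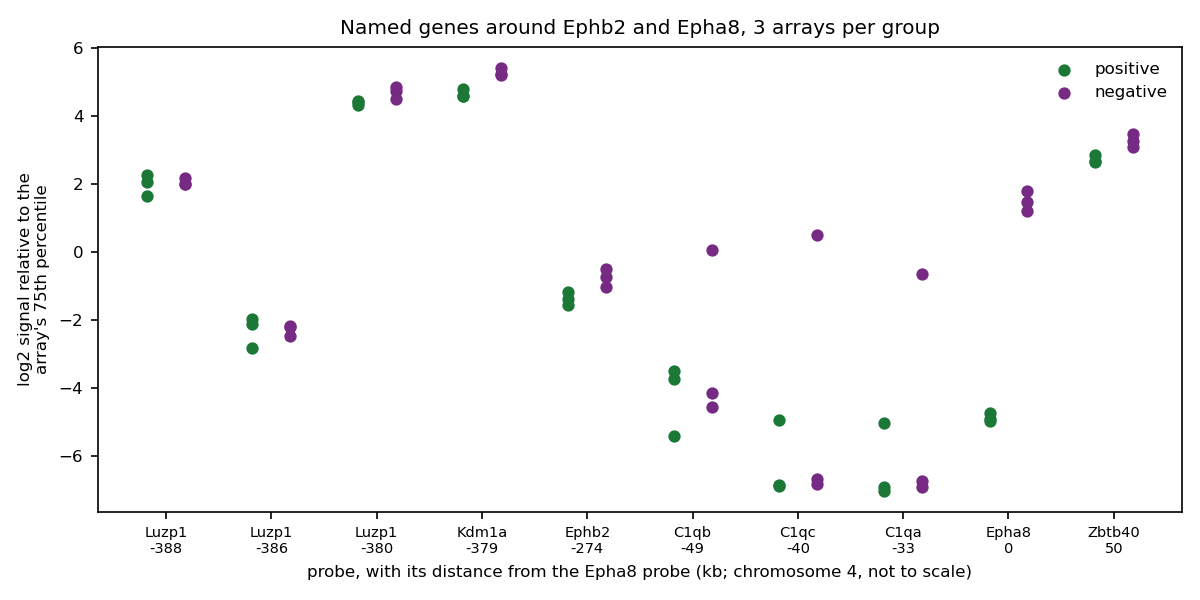
Log2 signal relative to the array's 75th percentile for the probes of named genes around Ephb2 and Epha8, with Sox9-EGFP positive cells (green) left of negative cells (purple) at each probe and the distance from the Epha8 probe in kb under each name. The Epha8 points of positive cells are signals at background and give no level, and the probes of Zbtb40 and Kdm1a, the nearest genes called in the same direction, differ by −0.55 and −0.62.

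Markers of cell types were summed on the linear scale, as multiples of each array's 75th percentile. The 11 cartilage precursor probes summed to 292 to 330 in positive cells and 66.1 to 91.0 in negative cells, and the 8 limb mesenchyme probes to 97.4 to 105 in positive cells and 139 to 151 in negative cells. The mesenchyme genes did not move together: Hoxd13 and Twist1 were called lower (−1.61 and −1.92; limma adjusted p = 0.00605 and 0.00118), and Pdgfra and Tbx5 higher (0.79 and 1.02; limma adjusted p = 0.0121 and 0.0111). The call of Pdgfra was lost without negative replicate 1 or 3 (adjusted p = 0.0606 and 0.0532), that of Tbx5 without negative replicate 3 (adjusted p = 0.0529), and both with no filter and with the replicate block. The 8 muscle precursor probes summed to 0.110 to 0.341 in positive cells and 0.623 to 1.48 in negative cells. Lbx1, Myog and Pax3 were called lower, Myog not without positive replicates 2 or 3 or negative replicates 1 or 2 (adjusted p from 0.084 to 0.11). Of the 8 probes, 0 were well above background on all 3 positive arrays and 4 on all 3 negative arrays. The tested muscle probes thus passed the filter only through the negative cells, which favours a lower call. Of the defining muscle markers, Pax3 was not well above background on any positive array and Pax7 on no array. On negative replicate 3 the muscle sum was the lowest of the negative arrays at 0.623.

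Blood cell probes summed to 1.45 to 4.16 in positive cells and 1.76 to 24.1 in negative cells, with 24.1 on negative replicate 2. Of the 5 tested blood cell probes 1 was called, that of Pf4, which was lower in positive cells whichever array was left out. The Pf4 probe was not well above background on all 6 arrays and passed the filter only through the negative cells, which favours a lower call. The 12 endothelial probes summed to 3.04 to 8.24 in positive cells and 2.05 to 5.27 in negative cells. Cdh5, the defining endothelial marker, was well above background on 1 array, that of negative replicate 2, and Pecam1 was not called. The 7 nerve and Schwann cell probes summed to 3.57 to 4.66 in positive cells and 2.65 to 2.88 in negative cells, with Sox10 and Stmn2 called higher in 4 tested probes. The Sox10 probe was not well above background on all 6 arrays and passed the filter only through the positive cells, which favours a higher call. When arrays were left out in turn, Sox10 was called only without negative replicate 2, and Stmn2 only without positive replicate 1. The 12 ectoderm probes summed to 22.5 to 37.0 in positive cells and 9.28 to 11.7 in negative cells, with Krt8 and Krt18 called higher and Cdh1 well above background on no array. The part of muscle precursors, blood cells, endothelium, nerve cells or ectoderm in the values of the receptors and ligands was not tested.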

How the data were processed

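RNA of 3 Sox9-EGFP positive and 3 Sox9-EGFP negative samples was measured on 1-colour arrays. Per the file headers, Feature Extraction 10.7.3.1 gave the authors' intensity values, corrected for background and spatial trend within an array but left unscaled between arrays. A second deposited table, the series matrix, gives log2 values made comparable across arrays by the authors, with a median of 6.47 over the probes used here in every column. The sources used here do not state its background correction, and it served as an alternative only.

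The processed intensity was taken as log2 minus the 75th percentile of an array's 59305 non-control spots. Spots of one probe were averaged, and the 3671 control spots did not enter. Spots flagged as outliers were left out, and all 26490 probes that passed the background filter kept values on at least 2 arrays per group. Each probe was fitted on its own with limma 3.58.1 in R 4.3.3 (lmFit and eBayes, Benjamini-Hochberg adjustment over 26490 probes, threshold 0.05). Probes have the mm9 coordinates that the files give, and promoters those of RefSeq on GRCm38.p6. The number of arrays, 3 per group, limits the precision. The fit was tested on simulated data.

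Same-numbered samples were checked for pairing, and the correlations of their deviations from the group means were −0.27, −0.46 and 0.28. These values differ in sign, and the deviations within a group depend on each other. They therefore cannot decide whether the numbers pair the samples, and replicate number was kept as an alternative block. Samples on the same slide gave correlations of 0.56, 0.41 and 0.24, and slide was another alternative block.

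The receptors, the gene lists and the rule for names were chosen with earlier results of these data known. The rule named Sox9, every probe of the family, and in the ligand and pathway lists up to 4 called genes with the smallest adjusted p in each direction, with Hoxa13 and Hoxd13. Other names, those of the neighbours on chromosome 4 among them, and the search for repeats were chosen after values were seen. Alternatives were quantile normalisation, centring on the median, normexp with an offset of 50, the series matrix, no background filter or one on all 6 arrays, 1 value per gene (brightest probe, or mean of its probes), robust moderation with a trend, array quality weights, a block for slide or for replicate number, an adjusted p of 0.01, a limit of 2-fold, and each array left out in turn.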

Additional observations from a re-analysis of the deposited data

How the results depend on the processing

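Epha2 kept its direction and call in all 20 alternatives. Epha8 kept both in the 19 that tested it, the filter on all 6 arrays having left it out. Its probe passed the main filter only through the negative cells. Epha4 kept its direction in all and lost its call with no filter on background, with the replicate block and at a threshold of 0.01. The count of receptor probes called higher was 1 (Epha7) with centring, the filter on all 6 arrays, 1 probe per gene (brightest or mean), trend and robust moderation and the slide block, 2 with array weights, and 0 without each array in turn. The count called lower was 5 with array weights (Ephb2 and Ephb4 added) and 3 to 4 without each array, the added one being Epha5 without positive replicate 1. It was 4 with normexp and the series matrix (Ephb2 added) and with trend and robust moderation (Ephb4 added). With no filter, the replicate block or a threshold of 0.01 it was 2, Epha4 being lost. With the filter on all 6 arrays it was 3, with Ephb2 called and Epha8 left out. The Epha5 probe A_55_P2062911 turned to 0.12 with quantile normalisation and with normexp, 0.10 in the series matrix, and lay between −0.65 and 0.058 without each array. Ephb3 turned to 0.18, 0.16 and 0.12 in those 3 scalings and lay between −0.43 and 0.017 without each array. The Ephb4 probe A_66_P130777 turned to 0.14, 0.12 and 0.11, and lay between −0.13 and 0.034 without each array. None of these 3 probes was called in the settings that turned them, and the cause was not tested.

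All called probes numbered 3805 with quantile normalisation, 1351 with no filter, where 55681 probes were tested, 9606 with array weights, 1718 at a threshold of 0.01, 2339 with a 2-fold limit and 2034 to 6453 without each array. For pathway probes these counts were 8, 4, 25, 5, 4 and 5 to 16. Ligand probes called were 1 with no filter, 2 to 2 without each array, and 3 (Efnb3 added) with quantile normalisation, normexp, the series matrix, trend and robust moderation and array weights. For the remaining receptors, 0 was called with normexp, the series matrix, no filter, the brightest probe, trend and robust moderation, at 0.01, with the 2-fold limit, and 0 to 0 without each array. Whether the replicate numbers pair the samples is not known. With the replicate block, 1371 probes in all, 1 ligand probe, 4 pathway probes and 0 of the remaining receptors were called, and Epha4 had an adjusted p of 0.0651 (limma). Dim probes limit what could be measured: Ephb1 and 1 Epha7 probe gave no test, and Epha8 gave only a bound in positive cells.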

Other observations

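The third Epha7 probe, below the limit for background everywhere, gave −3.82, −4.65 and −5.00 in Sox9-EGFP positive cells and −6.29, −6.83 and −6.78 in negative cells. Its signal carries no measured level. The raw processed signal behind the Epha8 bound was 4.70, 13.5 and 13.5 units on the positive arrays and 1248, 880 and 1665 units on the negative arrays. In Epha3, slide 1 ran against the other 2, with differences of −0.45, 0.80 and 0.38, and without positive replicate 1 the difference was 0.54. Ephb2 differed by −0.82, −0.17 and −0.88 on the 3 slides.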
